A study of Mus musculus with 4 samples.

Results

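Hepatocyte growth factor (Hgf), its receptor Met, the cell surface receptor Cd44 and 5 partner genes (Hgfac, St14, Spint1, Spint2 and Spp1) were examined by cell type in the stria vascularis (SV) of the mouse cochlea. The 8 genes were taken by symbol, not by any measured value, from the 27998 genes listed in the cell captures and the 48816 listed in the nucleus capture, and all 8 are in both lists. The dataset comprised 3 captures of dissociated whole cells (scRNA-Seq) and 1 capture of isolated nuclei (snRNA-Seq) from untreated CBA/J mice at postnatal day 30, with no treatment, genotype or time compared. Each capture was a suspension pooled from several mice, by the sample records about 12 for cells and about 10 for nuclei, while the study's methods give other numbers, so the capture, not the cell, was the replicate, and p-values measure only the spread between captures. RNA was counted with the 10x Genomics Chromium system as unique molecular identifiers (UMIs), each of which marks a captured RNA molecule. Values are UMI counts summed per cell type and scaled to the same total (CPM).

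HGF is secreted as a single chain that does not activate its receptor until a serine protease has cleaved it. The receptor tyrosine kinase MET then signals through adaptor proteins and the MAPK, PI3K and STAT3 routes, and isoforms of the hyaluronan receptor CD44 that hold a variable exon can act as its co-receptor. Osteopontin, the product of Spp1, is a second secreted ligand that binds CD44 and integrins. In the SV, marginal cells face the endolymph and secrete potassium, intermediate cells are melanocytes that produce the endocochlear potential, basal cells seal the tissue by tight junctions, and spindle/root cells lie at its edges. Variants of HGF and of MET are known from hereditary hearing loss.

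The 3 cell captures held 2811309 to 8340882 UMIs and the nucleus capture 22332501, with 377, 1314 and 1461 cells and 9723 nuclei kept. Clusters were formed without the 8 genes and named from markers of 17 cell classes that include none of them. This gave 118 marginal, 943 intermediate, 111 basal and 40 spindle/root cells, and 2687, 1477, 666 and 189 nuclei of the same types. At least 2-fold higher levels than in the rest of the dataset were found for 10 of 10 marginal, 10 of 11 intermediate, 7 of 7 basal and 7 of 7 spindle/root markers in cells, and for 10, 8, 7 and 7 in nuclei. No class was assigned to 56.15% of cells and 38.47% of nuclei. The median share of mitochondrial UMIs lay between 38.2% and 44.0% in the cell captures and at 7.01% in the nuclei. Pairs of captures shared between 0 and 32 barcodes, at most 2.03% of the smaller capture.

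Hgf, Spp1, the protease gene St14 and its inhibitors stood highest in marginal or spindle/root cells, and both receptors stood highest in intermediate cells. Of the 8 genes, 7 had enough counts to test, each in 4 types. In marginal cells 5 of the 7 were higher and 0 lower than the mean of the other 3 types at an adjusted p under 0.05 (edgeR quasi-likelihood test, Benjamini-Hochberg adjusted), where 16.6% of all 6026 genes tested were higher and 14.1% lower. In intermediate cells 2 were higher and 5 lower (20.1% and 21.6% of all genes), and the 2 are Met and Cd44. The study used both, as markers known from earlier work, to name that type in these captures, so nothing is read from their calls. In basal cells 0 were higher and 5 lower (15.4% and 13.5%), and in spindle/root cells 4 were higher and 2 lower (17% and 9.08%). Clusters and tests rest on the same cells, which favours differences between types. Each type is also part of the mean for the others, so the 4 log2 fold changes of a gene are tied to each other. The 5 genes lower in intermediate and in basal cells are the 5 higher in marginal cells, Hgf among them. These counts are therefore not separate evidence.

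**Figure D1:**
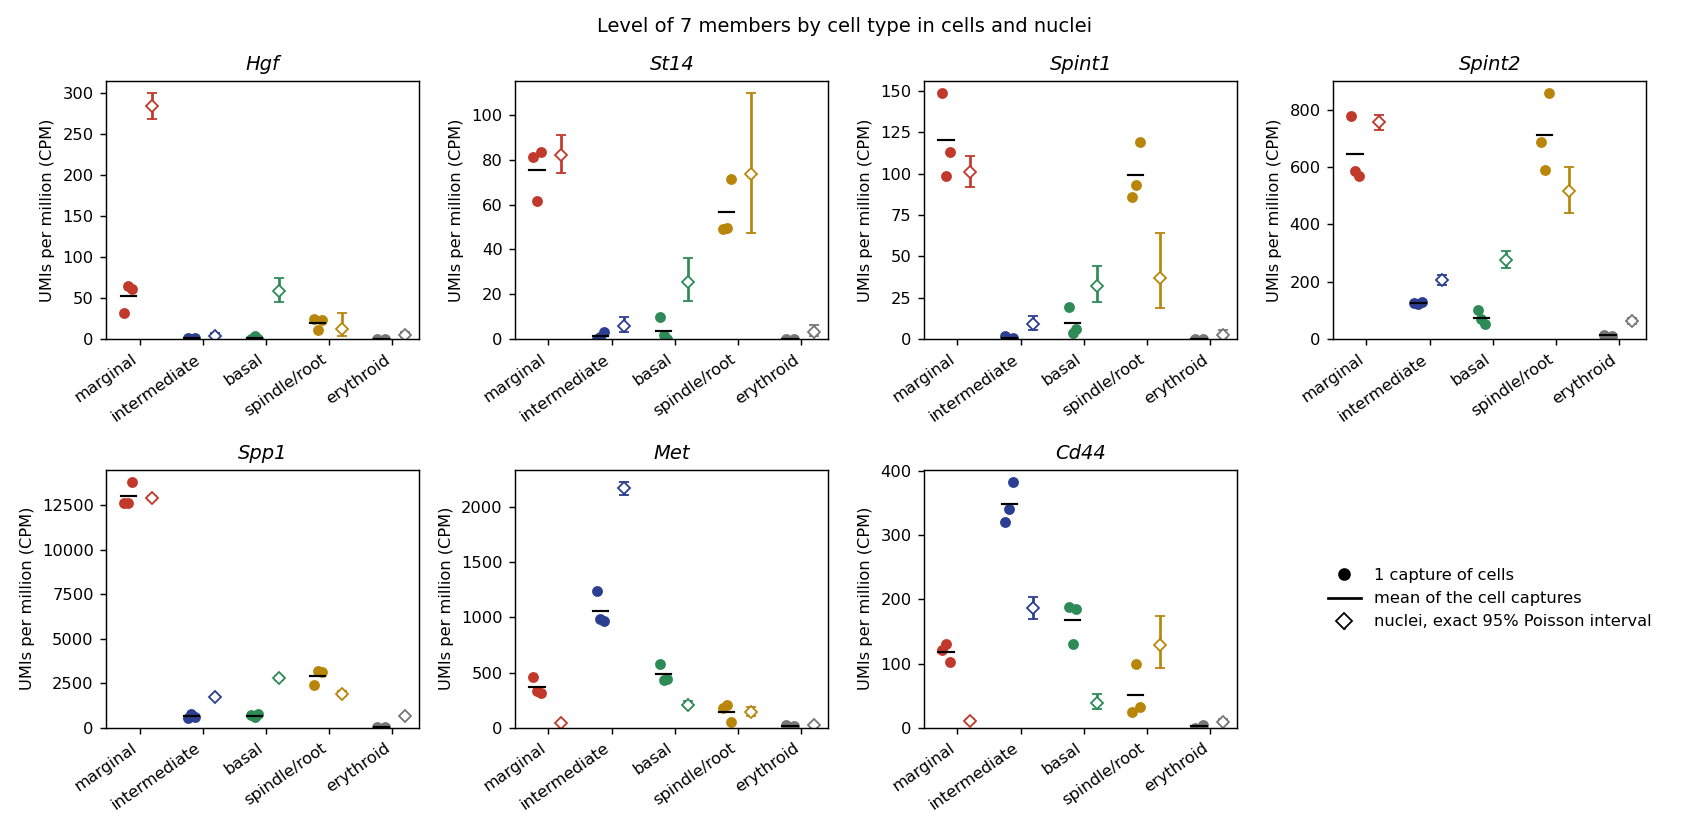
Level of each tested gene by cell type, as CPM. Points are the 3 cell captures with their mean, and the nuclei are 1 library with an exact 95% Poisson interval. Hgf and Spp1 stood highest in marginal cells, and Met and Cd44 in intermediate cells.

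Hgf (ENSMUSG00000028864; mm10 chr5:16553495-16620152, plus strand) was found mainly in marginal cells. It stood at 31.5, 64.7 and 61.4 CPM in the marginal cells of captures 1, 2 and 3 (52.6 ± 18.3, SD, n = 3). Spindle/root cells held 24.54, 10.98 and 23.81 CPM, from 7 UMIs in 40 cells. All 3 marginal values lay above all spindle/root values, and these above all basal and intermediate values. In basal cells 2 UMIs were counted, both in capture 2, and in intermediate cells 5 UMIs, at 0.956, 0.367 and 1.199 CPM. Basal and intermediate values overlapped. The Hgf UMIs of spindle/root cells lay in 4 of the 40 cells. For every 1000 UMIs of Kcne1, a marker of marginal cells, there were 43.5 Hgf UMIs in spindle/root and 44.8 in marginal cells. How much of the Hgf in spindle/root cells was RNA of marginal cells was not tested.

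Relative to the other 3 types, Hgf in marginal cells had a log2 fold change of 4.01 (with an SE of 0.40 and an adjusted p = 4.907e-15, edgeR quasi-likelihood test). The study names Hgf for its expression in marginal cells of these captures, so this direction is not independent evidence. Hgf was lower in intermediate cells, by a log2 fold change of -3.46 (an SE of 0.85 and an adjusted p = 0.0004041, edgeR). The mean it was set against includes marginal cells, so this call is not independent evidence either. In basal cells the log2 fold change was -2.34 (SE 0.93, adjusted p = 0.0465, edgeR), a call lost in 10 of 14 alternatives set beforehand. In spindle/root cells it was 1.78 (SE 0.77, adjusted p = 0.07835, edgeR), short of the threshold. Without capture 2 Hgf had too few counts to be tested.

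Few Hgf molecules were sampled per cell. Of 110 Hgf UMIs in the 3 captures, 76 (69.09%) came from marginal cells, which made up 3.744% of the cells. Unnamed cells held 3, 11 and 6 Hgf UMIs in captures 1, 2 and 3, of which 14 lay in a cluster of 161 cells. That cluster also held 1444 Met and 541 Cd44 UMIs, beside 650 UMIs of the marginal marker Kcne1 and 16449 of the intermediate marker Dct. A UMI of Hgf was found in 53 of 118 marginal cells (44.92%, exact 95% binomial interval 35.75% to 54.34%) at a median depth of 11629.5 UMIs, and a single cell held at most 4. Erythroid cells, which should lack the gene, held it in 0 of 96 cells at a median depth of 10230 UMIs, hemoglobin RNA included. The limit of 3 counts allows a share of cells with an Hgf UMI of up to 3.125%. Cells named fibrocytes, after connective tissue cells of the lateral wall, formed a cluster led by Ccl11 and Dcn. They held Hgf in 0 of 41 cells, where the same limit is 7.317%. An unnamed cluster of 57 cells led by the fibrocyte markers Otos and Coch held 1 UMI of Hgf. Intervals and limits of this kind cover counting error only.

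In the nuclei, Hgf stood at 284 CPM in marginal nuclei (exact 95% Poisson interval 269 to 300.1), and 87.94% of its 1476 UMIs lay there. Intermediate nuclei held 4.39 CPM (2.19 to 7.86), close to the 4.66 CPM (2.41 to 8.14) of erythroid nuclei. The hemoglobin gene Hbb-bs alone held 357100 CPM in erythroid nuclei, which lowers the CPM of other genes there. A UMI of Hgf was found in 0.745% of intermediate and 2.32% of erythroid nuclei, at median depths of 1423 and 5274.5 UMIs. Spindle/root nuclei held 12.3 CPM (3.34 to 31.4). The order of marginal above intermediate was therefore the same in cells and nuclei. The place of basal and spindle/root was exchanged, as basal nuclei held 58.5 CPM (45.3 to 74.2). This place depended on the clustering. Over the alternatives set beforehand, the log2 ratio of Hgf to the other 3 types ranged from -3.16 to 0.62 in basal nuclei. In spindle/root nuclei it ranged from -3.67 to -1.36, so the ranges overlapped. Nuclei of Reissner's membrane, the thin sheet that borders the endolymph opposite the SV, held 83.4 CPM (43.1 to 145.7).

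Hgf in basal nuclei came from a part of them. A cluster of 85 basal nuclei led by Itga10 and Col27a1 held 161 CPM (102 to 242), and one of 67 led by Pou3f4 and Col27a1 held 244 CPM (171 to 338). The largest basal cluster, with 475 nuclei, held 7.71 CPM (2.83 to 16.8). Kcne1, a potassium channel subunit of marginal cells, was counted in the same nuclei as a measure of marginal RNA. For every 1000 Kcne1 UMIs there were 264 Hgf UMIs (168 to 397) in the first of these clusters, 522 (365 to 722) in the second and 23.5 (8.64 to 51.2) in the largest one, and 250 (129 to 437) in Reissner's membrane. The marginal nuclei held 281 over all, but their clusters of 2039, 586 and 62 nuclei held 399.7 (374 to 427), 187 (169 to 206) and 30.6 (12.3 to 63.0). The ratios of the first and second basal cluster therefore lay within the range of the marginal clusters or overlapped it. That of the largest basal cluster lay at its lower end. Unnamed clusters of 1504, 1065 and 937 nuclei held 14.4 (9.20 to 21.4), 12.0 (7.40 to 18.3) and 10.0 (4.59 to 19.1). Intermediate clusters of 1213 and 264 nuclei held 30.2 (14.5 to 55.6) and 4.74 (0.12 to 26.4). The largest basal cluster overlapped these unnamed and intermediate clusters, and the first and second basal cluster lay above them. How much of the Hgf in basal nuclei was RNA of marginal cells was not tested.

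The marginal nuclei also differed among themselves. Their 2039-nucleus cluster held 309 CPM of Hgf (289 to 330) and their 586-nucleus cluster 253 CPM (229 to 279). Another cluster, of 62 nuclei, led by Spp1 and with a median of 24.15% mitochondrial UMIs, held 73.4 CPM (29.5 to 151). In cells, the 3 marginal clusters of 58, 32 and 28 cells held 53.3, 43.6 and 107.5 CPM, and the intervals of the last 2 (24.4 to 71.9 and 64.7 to 168) overlapped. The cluster with the highest Hgf also had the highest Kcne1, at 2581 CPM against 908 CPM in the largest.

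Hgfac (chr5:35041509-35048461, plus strand), the HGF activator, a liver-derived serine protease, had 1 UMI in all cells, in an intermediate cell of capture 2, and 0 UMIs in the nuclei. The count of 0 in 2687 marginal nuclei, at a median depth of 1399 UMIs, allows by the limit of 3 counts a share with a UMI of up to 0.112%, which does not limit the share that expresses the gene. It could not be tested.

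St14 (ENSMUSG00000031995; chr9:31089402-31131853, minus strand) encodes matriptase, a membrane serine protease that cleaves HGF at the cell surface. It stood at 81.0, 61.8 and 83.5 CPM in marginal cells and at 49.1, 49.4 and 71.4 CPM in spindle/root cells of captures 1, 2 and 3. These ranges overlapped, although the marginal value was the higher in each of the 3 captures, a difference that was not tested. Both lay above every intermediate and basal value, whose means were 1.43 ± 1.63 and 3.83 ± 5.14 CPM (SD, n = 3). St14 was higher in marginal cells, where its log2 fold change was 3.31 (SE 0.33, adjusted p = 2.141e-15, edgeR), and in spindle/root cells, with 2.77 (SE 0.50, adjusted p = 2.869e-06, edgeR). It was lower in intermediate and in basal cells, and without capture 3 the call in basal cells was lost (adjusted p = 0.1321, edgeR). In the nuclei St14 stood at 82.1 CPM (74.0 to 90.9) in marginal, 73.6 in spindle/root, 25.3 in basal and 5.99 in intermediate nuclei. A gene on the opposite strand inside St14, Gm16071, had 5 UMIs in marginal nuclei.

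Spint1 and Spint2 encode HAI-1 and HAI-2, membrane inhibitors of matriptase and of the HGF activator. Spint1 (chr2:119237362-119249527, plus strand) stood at 148.5, 98.6 and 113 CPM in marginal cells and 85.9, 93.4 and 119 CPM in spindle/root cells, and these ranges overlapped. Intermediate cells held 0.904 ± 0.960 CPM and basal cells 9.65 ± 8.48 CPM (SD, n = 3). The log2 fold change of Spint1 was 3.63 in marginal cells (SE 0.26, adjusted p = 2.611e-23, edgeR) and 3.34 in spindle/root cells (SE 0.38, adjusted p = 1.627e-12, edgeR). It was lower in intermediate cells, at -5.48, and at -1.49 in basal cells (adjusted p = 0.0472, edgeR), a call lost in 9 of 15 such alternatives. The calls of Spint1 and St14 in intermediate cells were kept in 15 of 15 such alternatives. A further one, described with Met below, leaves out the marginal and basal clusters of highest Dct. Both calls were lost there (log2 fold changes -3.85 and -2.15, adjusted p = 0.9999 and 0.9974, edgeR). In the nuclei Spint1 stood at 100.9 CPM (91.9 to 111) in marginal nuclei, but spindle/root nuclei, at 36.8 CPM (19.0 to 64.3), did not stand apart from basal nuclei, at 32.3 CPM (22.7 to 44.5), and intermediate nuclei held 9.18 CPM.

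Spint2 (chr7:29256323-29281912, minus strand) had a broader pattern. It stood at 687, 588 and 857 CPM in spindle/root cells and 779, 586 and 569.8 CPM in marginal cells, against 126 ± 2.15 CPM in intermediate and 74.8 ± 24.5 CPM in basal cells. Its log2 fold changes were 1.82 in spindle/root cells (SE 0.14, adjusted p = 1.687e-20, edgeR) and 1.64 in marginal cells (SE 0.12, adjusted p = 1.422e-22, edgeR), with lower levels in the other types. In the nuclei it stood at 755 CPM in marginal, 515 in spindle/root, 276.5 in basal and 204 in intermediate nuclei.

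**Figure D2:**
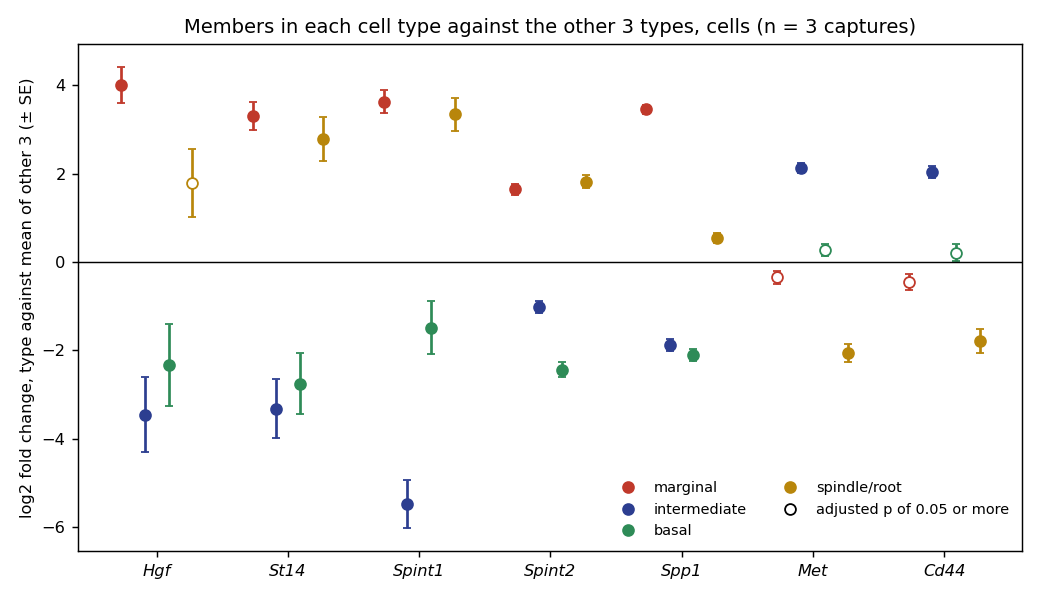
Log2 fold change of each tested gene in each main cell type relative to the other 3, with the SE from the edgeR fit to 12 sums. Hgf, St14, Spint1, Spint2 and Spp1 were higher in marginal cells, and of these St14, Spint1, Spint2 and Spp1 also in spindle/root cells.

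Spp1 (ENSMUSG00000029304; chr5:104435118-104441050, plus strand), which encodes osteopontin, marked marginal cells by its level rather than by its presence. It stood at 12610, 12600 and 13800 CPM in marginal cells of captures 1, 2 and 3, and at 2393, 3196 and 3134 CPM in spindle/root cells. Basal cells held 689.6 ± 68.1 CPM and intermediate cells 647 ± 121 CPM (SD, n = 3), and these values overlapped. The log2 fold change was 3.46 in marginal cells (SE 0.11, adjusted p = 1.117e-51, edgeR). It was 0.54 in spindle/root cells (SE 0.12, adjusted p = 0.0001684, edgeR), and with no doublets removed this fell to 0.22 (adjusted p = 0.2275, edgeR). The level in spindle/root cells came from a part of them. A UMI of Spp1 was found in 21 of 40 cells (52.5%), with a median of 1 UMI per cell and a highest value of 269. The median was 4 UMIs in intermediate and 2 in basal cells.

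All 118 marginal cells held Spp1, with a median of 126.5 UMIs per cell and a range of 27 to 470. Erythroid cells held a UMI of Spp1 in 42 of 96 cells (43.75%) at 48.4 CPM, and 94.3% of erythroid nuclei did so at 662 CPM (631 to 694). A UMI of Spp1 in a barcode was therefore also found in cells that should lack the gene. In intermediate cells 92.47% of barcodes held Spp1 at a median depth of 6148 UMIs, below the depth of the erythroid cells. With hemoglobin RNA in the total of erythroid cells and nuclei, their depth and CPM are not directly comparable with those of other types. Hbb-bs alone held 346600 and 291800 CPM in the erythroid cells of captures 2 and 3. Marginal nuclei held 12920 CPM (12810 to 13020), basal nuclei 2791, spindle/root nuclei 1914 and intermediate nuclei 1741 CPM. By CPM, spindle/root thus stood below basal nuclei, the reverse of their order in cells.

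Met (ENSMUSG00000009376; mm10 chr6:17463800-17573980, plus strand) and Cd44 (ENSMUSG00000005087; chr2:102811141-102901665, minus strand) were used by the study, as markers known from earlier work, to name intermediate cells in these captures. Their level in that type is therefore given as a description, without a p-value. The study shows Bmyc binding motifs for Met and Cd44, and reports their RNA by in situ hybridization in most nuclei with Bmyc RNA. It lists both among the targets of a regulon of Bmyc. The E-box CACGTG, bound by c-Myc and its relatives with a helix-loop-helix domain, was searched for that reason, although B-Myc itself lacks this DNA-binding domain. The RefSeq promoters (GRCm38.p6, 250 bases before to 50 after the start site, 5′ to 3′ on the gene's strand) of the receptors are shown with that motif in capitals, and that of Hgf is shown beside them as the ligand with the opposite pattern. They lie at chr6:17463707-17464006, chr2:102901616-102901915 and chr5:16553245-16553544.
Met: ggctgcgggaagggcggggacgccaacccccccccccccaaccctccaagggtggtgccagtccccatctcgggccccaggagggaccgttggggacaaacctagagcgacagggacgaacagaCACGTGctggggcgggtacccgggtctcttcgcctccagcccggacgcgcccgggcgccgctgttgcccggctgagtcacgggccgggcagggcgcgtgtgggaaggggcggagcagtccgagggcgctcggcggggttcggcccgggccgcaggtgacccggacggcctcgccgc
Cd44: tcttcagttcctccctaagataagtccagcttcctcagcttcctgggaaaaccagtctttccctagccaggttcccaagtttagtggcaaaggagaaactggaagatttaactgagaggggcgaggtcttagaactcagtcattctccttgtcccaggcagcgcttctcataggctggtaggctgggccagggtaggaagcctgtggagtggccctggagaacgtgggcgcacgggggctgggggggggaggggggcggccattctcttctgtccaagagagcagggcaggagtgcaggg
Hgf: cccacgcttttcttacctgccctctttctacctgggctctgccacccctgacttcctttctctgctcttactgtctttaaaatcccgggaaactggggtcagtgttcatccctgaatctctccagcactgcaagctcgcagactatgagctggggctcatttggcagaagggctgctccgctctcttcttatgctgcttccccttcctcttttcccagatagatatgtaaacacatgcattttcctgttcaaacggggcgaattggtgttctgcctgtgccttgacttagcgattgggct

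The E-box CACGTG, which reads the same on both strands, was found in the Met promoter from 126 to 121 bases before the start site. That RefSeq start site is chr6:17463957, while the Met gene position given above starts at chr6:17463800. By the latter start the motif lies inside the gene. The motif was found in 2349 of 32851 promoters of the same length (7.15%). No match was found in the promoters of Cd44, Hgf, Hgfac, Spint1, Spint2 or Spp1, which says only that these letters are not in these windows. AAGGTCA, searched on both strands as the half-site bound by estrogen-related receptors such as the marginal marker Esrrb, was found in 4.718% of all promoters and in 0 of the 7 members with a promoter in the table. The Met promoter was 75.67% G and C with 34 CpG, that of Cd44 58.0% with 6 CpG and that of Hgf 51.33% with 7 CpG, where the median of all promoters was 52.67% and 7 CpG.

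Met stood at 1234, 986.5 and 963 CPM in the intermediate cells of captures 1, 2 and 3 (1061 ± 150.1, SD, n = 3), a log2 fold change of 2.13 against the other types. Basal cells held 575.5, 434.5 and 444 CPM, and marginal cells 464, 335.5 and 314 CPM. The basal and marginal ranges overlapped, but within each of the 3 captures basal cells stood above marginal cells, a difference that was not tested. All lay below every intermediate value. Spindle/root cells held 184, 203 and 55.6 CPM, and Met was lower there by a log2 fold change of -2.06 (with an SE of 0.20 and an adjusted p = 1.517e-15, edgeR). In marginal and basal cells the log2 fold changes, -0.35 (adjusted p = 0.05792) and 0.27 (adjusted p = 0.1439, both edgeR), did not pass the test. Each of these 3 comparisons has intermediate cells in the mean, so none is free of the choice of Met as their marker.

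A UMI of Met was found in 904 of 943 intermediate cells (95.86%), with a median of 6 UMIs per cell and a highest value of 33. These cells held 60.48% of all Met UMIs. Erythroid cells held Met in 18.75% of 96 cells, at 21.0 ± 2.24 CPM (SD, n = 2). In the nuclei Met stood at 2167 CPM (2110 to 2225) in intermediate nuclei, of which 91.94% held a UMI, and 69.03% of all Met UMIs lay there. Marginal nuclei held 47.95 CPM (41.8 to 54.7) and erythroid nuclei 22.1 CPM (16.8 to 28.7). A UMI of Met was found in 7.257% of marginal and 10.97% of erythroid nuclei, at median depths of 1399 and 5274.5 UMIs. With the hemoglobin RNA of erythroid nuclei in their total, these levels are not directly comparable.

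Cd44 stood at 321, 341 and 383 CPM in the intermediate cells of captures 1, 2 and 3 (348 ± 31.6, SD, n = 3), a log2 fold change of 2.03. Basal cells held 189, 131 and 185 CPM and marginal cells 121.5, 131 and 103 CPM, which overlapped. Spindle/root cells held 24.5, 98.8 and 31.7 CPM, below the marginal values, with a log2 fold change of -1.79 (an SE of 0.28 and an adjusted p = 7.914e-08, edgeR). The log2 fold changes in marginal cells, -0.46 (adjusted p = 0.05734), and basal cells, 0.21 (adjusted p = 0.4143, both edgeR), did not pass the test. As for Met, each of these 3 comparisons has intermediate cells in the mean. Cd44 was detected in 741 of 943 intermediate cells (78.58%) and in 4 of 96 erythroid cells (4.167%).

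Met and Cd44 in marginal and basal cells varied with Dct, which was counted as a measure of intermediate cell RNA. Dct, an enzyme of melanin synthesis and a marker of intermediate cells, stood at 18780 CPM in intermediate, 6135 in basal, 4992 in marginal and 137 CPM in erythroid cells. In the 3 marginal clusters of 58, 32 and 28 cells, Dct stood at 7278, 2146 and 328 CPM. Met stood there at 503.5, 166 and 28.3 CPM, the last from 5 UMIs, and Cd44 at 188, 26.2 and 5.66 CPM. Both receptors were lower where Dct was lower, while Hgf was highest in the cluster with the least Dct. For every 1000 Dct UMIs the 3 clusters held 69.2 (62.6 to 76.3), 77.2 (58.5 to 100.1) and 86.2 (28.0 to 201) Met UMIs, against 22.4 to 75.7 in the 3 intermediate clusters.

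The basal cells showed the same pattern. A cluster of 66 basal cells led by Cdkn1c and Cytl1 held 116 CPM of Met, 27.1 CPM of Cd44 and 2066 CPM of Dct, and a cluster of 45 led by Fn1 and Ptpru held 821, 293 and 10310 CPM. With the marginal and the basal cluster of highest Dct left out, an alternative chosen after these values were seen, Met was lower in marginal cells (log2 fold change -1.17, adjusted p = 5.315e-05, edgeR) and in basal cells (-1.31, adjusted p = 7.578e-06, edgeR). Cd44 was then also lower in marginal (-2.18, adjusted p = 5.296e-05, edgeR) and basal cells (-1.53, adjusted p = 0.002426, edgeR), and its difference in spindle/root cells was no longer called (-0.13, adjusted p = 0.8664, edgeR). Which share of these UMIs came from marginal or basal cells themselves was not tested.

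**Figure D3:**
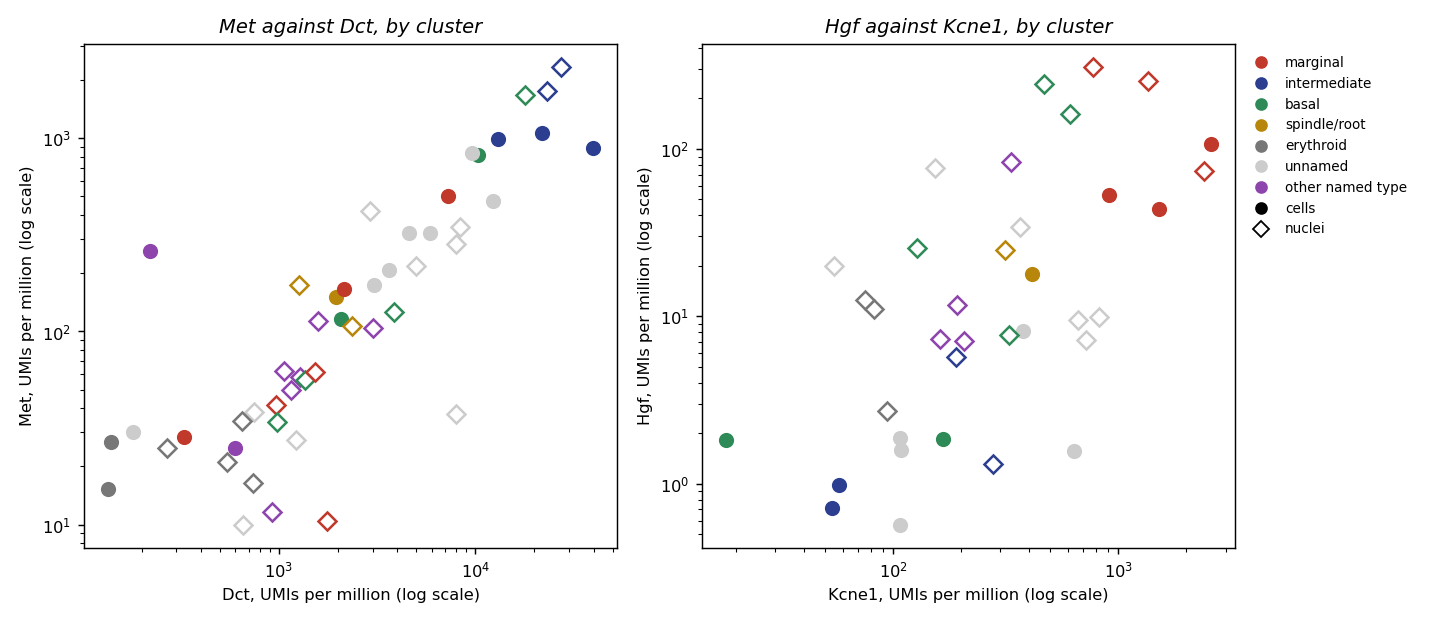
Level of Met by cluster against the level of Dct in the same cluster, and of Hgf against that of Kcne1, as CPM on log axes. Met was higher in the marginal and basal clusters of cells with more Dct, and in the nuclei 2 basal clusters held Hgf at 161 and 244 CPM.

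Among named nuclei other than intermediate ones, Met stood highest in basal nuclei, while the unnamed nuclei held 282.6 CPM. Basal nuclei held 211 CPM of Met (185 to 239.5), and this came largely from a cluster of 39 nuclei with 1672 CPM of Met and 17990 CPM of Dct. The other basal clusters, of 475, 85 and 67 nuclei, held 126, 56.1 and 33.9 CPM. With barcodes over 50% mitochondrial left out, which changes the clusters, the log2 ratio of Met in basal nuclei to the other types turned from -1.90 to 1.09, and that in intermediate nuclei was 1.81 in place of 4.02. Spindle/root nuclei held 141 CPM (103 to 188) and those of Reissner's membrane 104 CPM (58.4 to 172).

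Cells named fibrocytes in the scRNA-Seq dataset held Met with little Dct. In this cluster of 41 cells, led by Ccl11 and Dcn, Met stood at 296 CPM in capture 2 and 240 CPM in capture 3, with 62 UMIs in all. For every 1000 Dct UMIs there were 1192 Met UMIs (914 to 1528), against 54.2 in intermediate cells. Cd44 had 2 UMIs there. The nuclei named fibrocytes, led by Slc4a11 and Coch or by Otos, are clusters with other leading genes. They held 92.8 CPM of Met (46.3 to 166) with 67.5 Met UMIs per 1000 of Dct, near the ratio of 82.9 in intermediate nuclei. An unnamed cluster of 57 cells, led by Otos and Coch, held 70.44 Met UMIs per 1000 of Dct (60.33 to 81.75).

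Cd44 in the nuclei was not confined to intermediate nuclei, which held 186 CPM (169.9 to 204). Neutrophils, at 180 CPM (122.5 to 256), and macrophages, at 171 CPM (109.7 to 255), did not differ from them beyond their intervals. CD44 is a homing and adhesion receptor of leukocytes. In cells, an unnamed cluster of 43 with markers of both neutrophils and macrophages held 79.0 CPM of Cd44.

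Spindle/root nuclei held 129 CPM of Cd44 (92.9 to 174) and their 2 clusters differed. The cluster of 92 nuclei led by Ceacam16, with Lgr5 and Epyc among its leading genes, held 217 CPM, from 36 UMIs. The cluster of 97 led by Hpse2 held 37.5 CPM (13.8 to 81.7), from 6 UMIs. For every 1000 Dct UMIs the first held 171 Cd44 UMIs (120 to 237). Dct stood at 1264 CPM in the first and 2340 CPM in the second cluster, so the cluster with more Cd44 had less Dct. Marginal nuclei held 10.5 CPM of Cd44 (7.75 to 13.9) and erythroid nuclei 9.32 CPM (5.97 to 13.9). The erythroid value was uneven, as 13 of its 24 UMIs came from a cluster of 56 nuclei led by Hemgn and Klf1. Spindle/root thus stood above marginal nuclei, the reverse of their order in cells. The log2 ratio of spindle/root nuclei to the mean of the other 3 main types was 0.71 (0.26 to 1.16). In cells the log2 fold change was -1.79. The ratio in nuclei is taken over an arithmetic mean of CPM and the value in cells comes from the edgeR fit, so only their directions are compared.

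Both receptors were found in the same intermediate cells, to the extent that depth allowed. The study reports both RNAs together in nuclei of these cells, by fluorescent in situ hybridization on tissue sections. A UMI of each was present in 721 of 943 intermediate cells (76.46%, exact binomial interval 73.62% to 79.13%). Cells with Met held Cd44 in 79.76% of cases and cells without it in 51.28%, but their median depths were 6406 and 2554 UMIs. After each cell was thinned to 1000 UMIs, 16.33% held both, and Cd44 was found in 26.97% of cells with Met and 27.96% of cells without. The excess of joint detection was not seen in the thinned cells. However, 904 of the 943 cells held Met before thinning and 571 after it. Most cells without Met after thinning had thus lost it by thinning, so this comparison cannot decide whether the excess rests on depth. In intermediate nuclei 22.14% held both (20.05% to 24.35%), and 13.24% after thinning, with 49 nuclei too shallow to be thinned.

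Ligand and receptor were also looked for in the same marginal cells. Of the 53 marginal cells with Hgf, 62.26% held Met, and of those without Hgf 72.31% did. The exact binomial intervals (47.89% to 75.21% and 59.81% to 82.69%) overlapped. In marginal nuclei 9.338% of those with Hgf (7.537% to 11.4%) and 6.172% of those without (5.095% to 7.398%) held Met. The median depth was 1484 UMIs in the former and 1344.5 in the latter, and after thinning to 1000 UMIs the shares were 4.421% (2.98% to 6.287%) and 4.101% (3.27% to 5.072%).

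Levels in nuclei were set against the mean of the 3 cell captures for genes with at least 20 UMIs in each, without a test, since the nuclei are 1 library. In marginal nuclei Hgf stood above its level in marginal cells by 2.44 on the log2 scale, the 96.9th percentile of 6565 genes, whose 10th and 90th percentiles were -1.46 and 1.56. Met stood at -2.95 (the 1.36th percentile) and Cd44 at -3.50 (the 0.746th percentile). Spp1, at -0.01, St14, at 0.12, Spint1, at -0.25, and Spint2, at 0.23, differed little. The ligand and both receptors thus lay at opposite ends of the distribution in marginal nuclei, and Dct stood at 1181 CPM there against 4992 CPM in marginal cells.

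In intermediate nuclei Met stood above cells by 1.03 on the log2 scale (the 70.1st percentile of 8280 genes, with a median of 0.38), and Cd44 below them at -0.90 (the 11.5th percentile). In basal nuclei Met stood at -1.20 and Cd44 at -2.10, whereas Spp1 and Spint2 stood at 2.02 and 1.89, above the 90th percentile of 1.45. Kcne1, the measure of marginal RNA, was also higher there, at 367 CPM against 91.6 CPM in basal cells. How much of the Spp1 and Spint2 in basal nuclei was RNA of marginal cells was not tested. In spindle/root nuclei Cd44 stood at 1.32 and Met at -0.06. Longer genes stood higher in nuclei, as genes that span over 60 kb had a median of 0.95 in marginal and 1.41 in intermediate nuclei. Hgf spans 66.7 kb, Met 110 kb and Cd44 90.5 kb, and the value of Hgf was below the 90th percentile of such genes in marginal nuclei (2.48). The study states default counting settings, and whether reads on introns of nuclear RNA were counted is not given in the sources used here.

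**Figure D4:**
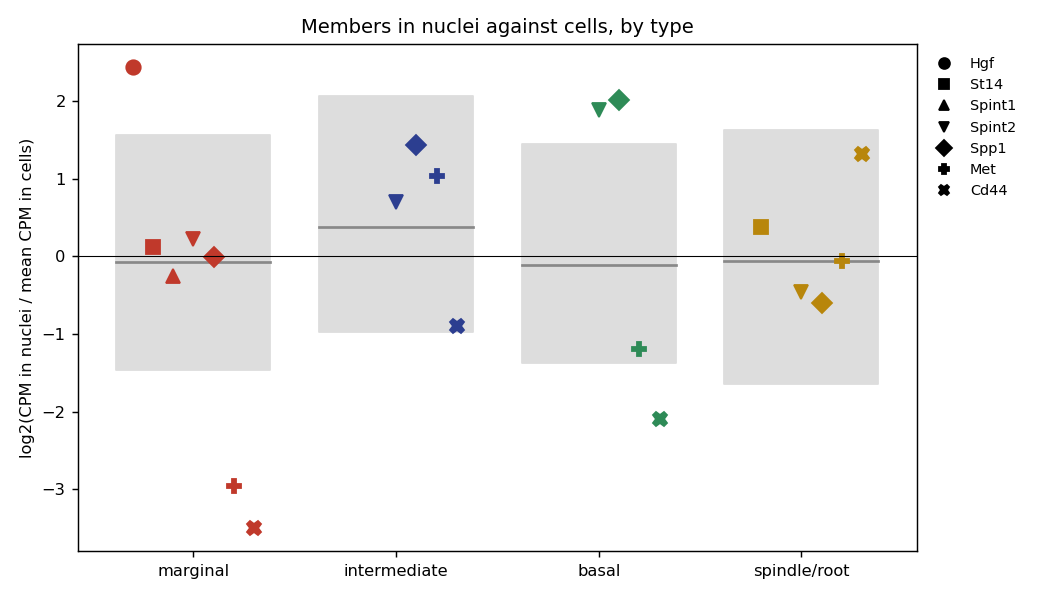
Log2 ratio of the CPM in nuclei to the mean CPM of the 3 cell captures for each gene and main type, beside the median and the 10th to 90th percentile of all genes with at least 20 UMIs in both. In marginal nuclei Hgf stood at 2.44, Met at -2.95 and Cd44 at -3.50.

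The wider pathway was described by 66 further genes in 3 lists, of which 37 could be tested. In marginal cells 12 were higher and 6 lower, in intermediate cells 13 and 11, in basal cells 7 and 8, and in spindle/root cells 9 and 6, with median log2 fold changes of -0.08, 0.11, -0.09 and -0.19, where those of all genes were -0.01, -0.02, -0.04 and 0.02. Over all genes tested, 16.6% were higher and 14.1% lower in marginal, 20.1% and 21.6% in intermediate, 15.4% and 13.5% in basal, and 17% and 9.08% in spindle/root cells, and the counts of each list are to be read against these shares. The 18 calls in marginal cells were 9 without capture 3, and the 15 in basal cells 8 without capture 2. Of 11 genes for proteases and related ligands of HGF, 3 were tested, the serine proteases Tmprss2, Prss8 and Plat, and all 3 were higher in spindle/root cells and lower in intermediate cells. Tmprss2, a membrane protease, stood at 46.8 ± 10.3 CPM in marginal cells, and its log2 fold change there was 4.00 (SE 0.48, adjusted p = 1.61e-11, edgeR). Plat, tissue plasminogen activator, stood at 182 ± 10.3 CPM in spindle/root cells (log2 fold change 4.82, SE 0.35, adjusted p = 7.306e-23, edgeR) and was lower in marginal cells. In the nuclei they held 97.4 and 196 CPM in the same types. Plau, which encodes urokinase, had 0 UMIs in every cell type.

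Of 29 co-receptors, adaptors and brakes of MET, 20 were tested, and 9 were higher and 5 lower in intermediate cells, against 5 and 2 in marginal, 5 and 2 in basal, and 3 and 4 in spindle/root cells. The 5 lower in intermediate cells and the 3 higher in spindle/root cells are close to the shares of all genes, 21.6% and 17%. No other count of this short list is read as a departure from its share. Dusp6, a phosphatase that restrains ERK, stood at 225.5 ± 19.1 CPM in intermediate cells (log2 fold change 2.03, SE 0.14, adjusted p = 7.727e-25, edgeR). Also higher there were Shc1, Pik3r1, Pik3ca, Plcg1, Src, Stat3, Ptprj and Cd151, which encode adaptors, kinase subunits, signalling enzymes and a membrane partner, while the adaptor Gab1, the plexins Plxnb1 and Plxnb2, the phosphatase Ptpn11 and the integrin subunit Itga6 were lower. Itga6 was higher in marginal cells, at 91.0 ± 8.42 CPM (log2 fold change 3.91, SE 0.30, adjusted p = 1.989e-21, edgeR). In basal cells the adaptor Shc1 stood at 88.5 ± 12.4 CPM (log2 fold change 1.72, adjusted p = 3.192e-09, edgeR) and Pik3r1, the regulatory subunit of PI3K, at 116.5 ± 28.4 CPM (1.28, adjusted p = 1.523e-07, edgeR). Mst1r, a receptor of the same family as Met, had 2 UMIs in marginal cells, and Mst1, its ligand, 1 UMI in intermediate cells.

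Of 26 partners of CD44 and osteopontin, 14 were tested, and 5 were higher and 3 lower in marginal cells, 4 and 3 in intermediate, 2 and 4 in basal, and 3 and 2 in spindle/root cells. The 3 lower in intermediate, the 2 higher in basal and the 3 higher in spindle/root cells are close to the shares of all genes, 21.6%, 15.4% and 17%. No other count of this short list is read as a departure from its share. Esrp1, a splicing regulator that favours epithelial forms of Cd44 with variable exons, was higher in marginal and spindle/root cells and lower in intermediate and basal cells. These 3′ counts do not tell isoforms of Cd44 apart. The integrin subunit Itgb5 was higher in marginal cells, at 576 ± 74.7 CPM (log2 fold change 3.18, SE 0.13, adjusted p = 1.433e-42, edgeR). Itgb5 was also higher in spindle/root cells, at 210 ± 62.6 CPM (1.26, adjusted p = 1.914e-07, edgeR), as was Ezr, which encodes ezrin, a linker of CD44 to actin, at 163 ± 39.7 CPM (0.96, adjusted p = 0.000811, edgeR). Itgav, whose product pairs with integrin beta 5 to bind osteopontin, had another pattern. It stood at 252 CPM in intermediate cells (log2 fold change 1.01, adjusted p = 7.627e-12, edgeR) and 223 CPM in basal cells (0.45, adjusted p = 0.01535, edgeR), and was lower in spindle/root cells, at 93.9 CPM (-1.22, adjusted p = 3.596e-06, edgeR).

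In intermediate cells Mmp14, a membrane metalloprotease that cleaves CD44, stood at 73.2 ± 14.6 CPM (log2 fold change 2.19, SE 0.21, adjusted p = 1.565e-16, edgeR). The ezrin relative Msn stood there at 88.7 ± 4.40 CPM (1.47, SE 0.20, adjusted p = 3.209e-10, edgeR). Msn was also higher in marginal cells (0.76, adjusted p = 0.0158, edgeR) and lower in spindle/root cells (-2.69, adjusted p = 1.747e-06, edgeR). Cemip, which takes part in the breakdown of hyaluronan, stood at 193 ± 57.3 CPM in basal cells (log2 fold change 5.94, SE 0.29, adjusted p = 1.041e-32, edgeR) and at 698 CPM in basal nuclei. The hyaluronan synthase Has2 had 0 UMIs in cells.

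The genes most like each signalling gene were ranked by Pearson's r of log2(CPM + 1) over the 12 sums of the 4 main types in cells, among 6025 other genes. The sums of a capture share a suspension, and r is given as a description. For Hgf they were Ripk4 (0.98), Serinc3 (0.98), Ggnbp1 (0.97), Tspan1 (0.97) and Gyltl1b (0.97). For Met they were Dkk3 (1.00), Gpnmb (0.99), Dct (0.99), Lhfpl2 (0.99) and Hpse (0.99), and for Cd44 Arhgap20 (0.98), Stmn3 (0.98), Cers6 (0.97), Nol3 (0.97) and Jam2 (0.97). Over the 10 named types of the nuclei, r stayed between 0.82 and 0.96 for the genes like Met, but lay between -0.20 and 0.79 for those like Hgf and between 0.01 and 0.60 for those like Cd44. Met and Cd44 had an r of 0.91 in cells (rank 95 for Met) and 0.29 over the nucleus types, and Hgf and Met had an r of -0.62 in cells and -0.07 over the nucleus types.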

How the data were processed

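Cells and nuclei of the SV were profiled on the 10x Genomics Chromium platform (3′ v2 chemistry). The authors aligned reads to mm10 and counted UMIs with Cell Ranger 2.0.0 under default settings, and deposited the raw counts of every capture, not normalized. The annotation behind the longer gene list of the nuclei, and whether introns were counted with it, is not given in the sources used here. The median depth was 5054, 4938 and 3878 UMIs per barcode in the cell captures and 1561 in the nuclei. Genes with overlapping annotation (Gm43489 and Gm42975 in Hgf, Gm23731 in Cd44, Gm42793 in Spp1) had 0 UMIs in the main nucleus types.

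A barcode had to hold at least 200 genes, and doublets were removed with Scrublet (scanpy 1.11.5) at 0.8% for every 1000 barcodes, 1, 15 and 20 cells and 978 nuclei. Cells and nuclei were clustered apart in Seurat 5.3.0 (R 4.3.3) at a resolution of 0.8. The 8 genes were kept out of the variable genes. Clusters were named from 117 markers where at least 3 were raised and no other class scored near the first, under a rule set with the clusters in view. Only markers were used for names, which are therefore short for "like" the type.

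UMI counts were added up over the cells of each type and capture, with at least 5 cells, into 12 sums (17, 64 and 37 marginal, 121, 423 and 399 intermediate, 16, 50 and 45 basal and 5, 18 and 17 spindle/root cells). They were fitted in edgeR 4.0.16 (TMM, filterByExpr, robust quasi-likelihood fit) with the capture as a block, and p-values were adjusted over all 6026 genes tested (Benjamini-Hochberg). Sums of the same capture share a suspension, which pairs them, and their deviations correlated at 0.0176 to 0.3651 over 2017 genes. The SE is the log2 fold change divided by the root of F. Procedures were tested on simulated data. For the nuclei, exact Poisson and binomial intervals came from scipy 1.17.1 with no test. The log2 ratio of a nucleus type is that of its CPM over the arithmetic mean CPM of the other main types. Its interval is a normal approximation from UMI counts. Gene positions are from GENCODE vM21.

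Alternatives set beforehand were no doublet removal, at least 500 genes, barcodes over 50% mitochondrial left out, resolutions of 0.4 and 1.2, 20 principal components, the 8 genes allowed among the variable genes, DESeq2 1.42.0, no filter, library sizes alone, no block, at least 10 cells per sum, each capture left out, CPM without mitochondrial UMIs, and thinning. The members, lists and tests were chosen with earlier results of these data known. The genes named besides the 8 were, per type, the 3 list genes called higher that had at least 50 UMIs and changed most, ligands and receptors on the lists, and the 5 genes most like Hgf, Met and Cd44. Other list genes were named after their values were seen.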

Additional observations from a re-analysis of the deposited data

How the results depend on the processing

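Of the log2 fold changes in cells, that of Hgf in marginal cells (3.38 to 4.20 over the alternatives set beforehand) kept its direction and call. Those of Met (1.81 to 2.31) and Cd44 (1.64 to 2.48) in intermediate cells, given as descriptions, kept their direction. Met and Cd44 in marginal and basal cells did not. With the 8 genes allowed among the variable genes, the log2 fold change in marginal cells was 0.63 for Met and 0.55 for Cd44, and that of Cd44 in basal cells -0.14. With 20 principal components basal cells were set against marginal and intermediate cells alone, as no spindle/root cells were named. Their log2 fold changes were then -1.41 (Met) and -1.37 (Cd44). With the clusters of most Dct left out, chosen after seeing the data, those in basal cells were -1.31 and -1.53. Leaving out each capture gave -0.0241 to 0.82 for Cd44 in basal cells, where the lowest was without capture 3. With those clusters left out, St14 and Spint1 in intermediate cells lost their calls (adjusted p = 0.9974 and 0.9999, edgeR). Both calls were kept in 15 of 15 alternatives set beforehand. With 20 principal components Spp1 in intermediate cells, set against marginal and basal cells alone, lost its call (adjusted p = 0.05078, edgeR). The cause was not tested. Without capture 2, 6 genes were higher in at least 1 type, as Hgf could not be tested.

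In the nuclei, the log2 ratio of Hgf in marginal nuclei to the other types was 3.50, and 1.90 with no doublets removed, 4.94 with at least 500 genes, 4.02 without barcodes over 50% mitochondrial, 3.02 at a resolution of 0.4, 2.33 with 20 principal components and 4.26 with the 8 genes allowed. That of Met in intermediate nuclei was 4.02, and 2.79, 3.76, 1.81 and 3.49 under the first 3 and the fifth of these. That of Cd44 was 1.65, and 1.14 without barcodes over 50% mitochondrial. In basal nuclei, the ratio of Hgf was -0.78 and ranged from -3.16 to 0.62 over these alternatives. It turned to 0.28 with no doublets removed and 0.62 with 20 principal components. Spint1 in basal nuclei turned to 0.0629 with 20 principal components, and Met and Cd44 to 1.09 and 0.0857 without barcodes over 50% mitochondrial. Over UMIs that are not mitochondrial, intermediate nuclei over cells gave 0.53 for Met and -1.41 for Cd44. Joint detection of Met and Cd44 fell to 16.3% and 6.26% of intermediate cells, and to 13.2% and 5.21% of nuclei, after thinning to 1000 and 500 UMIs.

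List genes called numbered 18 in marginal and 15 in basal cells, 10 and 9 with DESeq2, and 9 to 14 (lowest without capture 3) and 8 to 13 (lowest without capture 2) with each capture left out. Without the replicate block, Spint1 in basal cells lost its call (adjusted p = 0.05253, edgeR), and no other call of the 8 genes changed. Library sizes alone shifted the median log2 fold change of all genes in intermediate cells to -0.34, with 680 genes higher and 2407 lower against 1209 and 1301, and gave 1258 and 632 in marginal and 1301 and 370 in spindle/root cells against 998 and 851, and 1026 and 547. With 20 principal components no spindle/root cells were named. Depth limited Hgf in cells, with 110 UMIs.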
